A study of Mus musculus with 32 samples.

Results

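Fibroblast-rich and fibroblast-poor melanomas were set apart among 32 primary mouse melanomas by a score, the mean of log2(TPM + 1) over Pdgfra, Dcn and Lum, where TPM (transcript abundance) corrects each gene for its length and each library for its size. The 10 tumours with the highest score were taken as fibroblast-rich, the 10 with the lowest as fibroblast-poor, and the other 12 as middle tumours, so that 20 of 32 tumours entered the comparison. All tumours came from mice of the genotype Tyr::NrasQ61K, Cdkn2a-/+ and Cdh1F/F, in which an oncogenic NRAS is expressed from the tyrosinase promoter in melanocytes and 1 copy of Cdkn2a is lost. Ecad mice carried no Cre (°/°), and ΔEcad mice carried, per the study's methods, Tyr::CreA, which deletes Cdh1 (E-cadherin) in melanocytes and leaves it in other cells; the GEO labels print Tyr::NRAS/° in that place. There were 8 tumours each of Ecad males, Ecad females, ΔEcad males and ΔEcad females; no ages are given in the labels. Whole tumours were sequenced as bulk polyadenylated RNA, so that fewer cells of a type and less RNA per cell cannot be told apart. The labels do not say that each tumour came from a separate mouse, and p-values measure the spread between these tumours.

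Fibroblasts are the mesenchymal cells that make and turn over the collagen, proteoglycan and elastic-fibre matrix of the dermis, and in melanoma they surround and infiltrate the tumour. Pdgfra encodes a receptor for platelet-derived growth factor that marks dermal fibroblasts, and Dcn (decorin) and Lum (lumican) are small leucine-rich proteoglycans that bind collagen fibrils. In the GENCODE M21 annotation of GRCm38, Pdgfra lies at chr5:75152292-75198215, + strand, Dcn at chr10:97479609-97518143, + strand and Lum at chr10:97565128-97572703, + strand. Fibroblasts are not the only skin cells that a tumour sample can hold: epidermis, hair follicles, fat, muscle, vessels, nerves and blood cells each have genes of their own, and these were listed and measured beside the fibroblast genes.

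The values that chose the tumours are given as a description, without a test. The score was 5.10 to 8.37 in fibroblast-rich, 4.00 to 5.09 in middle and 1.64 to 3.84 in fibroblast-poor tumours. At the upper boundary ΔEcad female 2, with a score of 5.10, was the last tumour inside, and ΔEcad male 5, with 5.09, the first outside. At the lower boundary Ecad female 1 lay inside at 3.84 and Ecad female 5 outside at 4.00. Dcn was at 80.7 to 404 TPM (median 166) in fibroblast-rich and 2.24 to 48.0 TPM (median 15.9) in fibroblast-poor tumours. Lum was at 39.0 to 457 TPM (median 58.7) in fibroblast-rich and 0.11 to 22.0 TPM (median 5.92) in fibroblast-poor tumours, so that neither proteoglycan overlapped between the classes. Pdgfra was at 6.75 to 194 TPM (median 13.05) in fibroblast-rich and 0.42 to 76.2 TPM (median 1.64) in fibroblast-poor tumours, and here the classes overlapped through a single tumour.

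**Figure D1:**
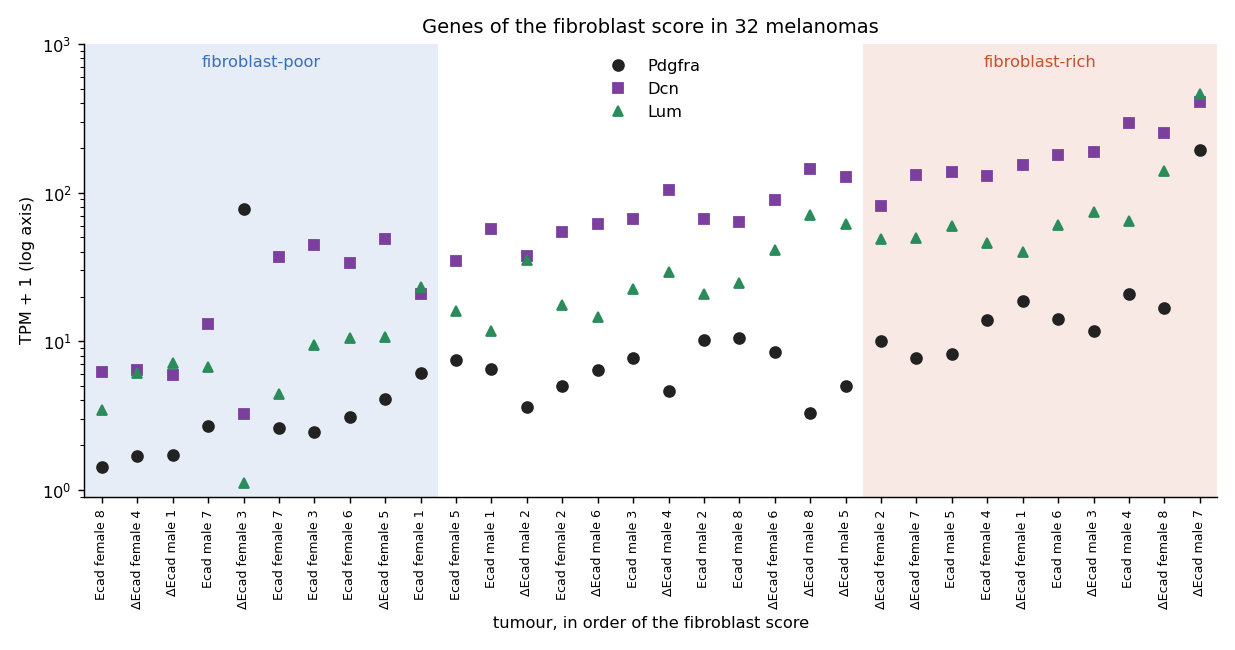
TPM + 1 of Pdgfra (circles), Dcn (squares) and Lum (triangles) on a log axis in each of the 32 tumours, in order of their fibroblast score, with the 10 fibroblast-poor tumours shaded on the left and the 10 fibroblast-rich tumours on the right. Dcn and Lum climb along the order, and ΔEcad female 3 stands out among the fibroblast-poor tumours with 76.2 TPM of Pdgfra beside 2.24 TPM of Dcn and 0.11 TPM of Lum.

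That tumour was ΔEcad female 3, which goes against the label of its class. It had 76.2 TPM of Pdgfra, where the other 9 fibroblast-poor tumours had 0.42 to 5.13 TPM. It also had 4361 TPM of the type I collagen gene Col1a1, against 15.9 to 226 TPM in those 9 tumours, and 3978 TPM of Acta2, the actin of smooth muscle and contractile fibroblasts, against 8.46 to 89.7 TPM. Snai1, a transcription factor of mesenchymal cells, was at 533 TPM in it and at 1.11 to 11.2 TPM in the others. Markers of blood and vessels were at or near 0 in the same tumour, with 0 TPM of the leukocyte gene Ptprc, 0 TPM of the haemoglobin gene Hbb-bs and 0.15 TPM of the endothelial gene Pecam1. It is a tumour low in Dcn and Lum, not one low in matrix genes, and many of the list counts below are given without it too.

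ΔEcad male 7 stood apart at the other end, with the highest score, 8.37. It had 194, 404 and 457 TPM of Pdgfra, Dcn and Lum, and melanocytic genes were almost missing from it: Dct, a melanin-synthesis enzyme, was at 4.98 TPM, against 1466 to 22378 TPM in the other 9 fibroblast-rich tumours, and the melanocyte transcription factor Sox10 at 0.49 TPM, against 346 to 982 TPM. Ecad female 4 was the third tumour that differed from its class. It was fibroblast-rich by score, with 12.9, 129 and 44.5 TPM of Pdgfra, Dcn and Lum, yet had 5.77 TPM of the dermal fibroblast gene Dpt (dermatopontin) where the other 9 had 65.4 to 687 TPM, and 0 TPM of Krt5, the keratin of basal keratinocytes. Its Col1a1 was the highest of the class, at 2473 TPM, where the other 9 had 262 to 1213 TPM.

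The classes also differed in sex and genotype. The fibroblast-rich class held 4 Ecad and 6 ΔEcad tumours, 5 female and 5 male, and the fibroblast-poor class 6 Ecad and 4 ΔEcad tumours, 8 female and 2 male. Total counts were 27897800 to 38943088 per tumour in the fibroblast-rich and 28558005 to 63923086 in the fibroblast-poor class. Cdh1 was at 2.16 to 282 TPM (median 82.5) in the 16 Ecad tumours and at 0.17 to 143 TPM (median 7.36) in the 16 ΔEcad tumours; within the fibroblast-rich class the ΔEcad tumours had a median of 71.8 TPM and the Ecad tumours of 201 TPM. Between the classes Cdh1 was at 2.17 to 282 TPM (median 97.9) in fibroblast-rich and 0.17 to 151 TPM (median 12.7) in fibroblast-poor tumours. Cdh1 differed by 1.45 ± 0.88 (adjusted p = 0.264). ΔEcad male 2, a middle tumour that entered neither class, had 0 TPM of the Y-linked genes Ddx3y and Eif2s3y, which were at 10.8 to 47.4 and at 2.96 to 89.4 TPM in the other 15 tumours labelled male, and 6.41 TPM of Xist, which those 15 had at no more than 0.2 TPM. Grpr, the receptor gene that the study followed, did not pass the filter on low counts in this comparison and was at 0.06 to 206 TPM (median 1.87) in fibroblast-rich and 0 to 263 TPM (median 0) in fibroblast-poor tumours.

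Among the marker lists of other cell types, the median of the marker score differed most for keratinocytes. Krt5 was above 1000 TPM in 8 of 10 fibroblast-rich tumours, all but Ecad female 4 and ΔEcad male 7, and in 0 of 10 fibroblast-poor tumours. The mean log2(TPM + 1) of 12 keratinocyte markers was 0.32 to 9.87 (median 8.38) in fibroblast-rich, 0.39 to 8.58 (median 4.74) in middle and 0.25 to 5.92 (median 0.46) in fibroblast-poor tumours, and their summed level was 7.18 to 42323 TPM (median 14809) and 5.32 to 2113 TPM (median 9.47) in the 2 classes. Krt5 itself was at 0 to 6485 TPM (median 2594) in fibroblast-rich and 0 to 331 TPM (median 0.05) in fibroblast-poor tumours, and Krt14, its pairing keratin, at 0 to 9186 TPM (median 3904) in fibroblast-rich and 0 to 626 TPM (median 0.195) in fibroblast-poor tumours. Because Krt5 and Krt14 were under 1 TPM in those 2 fibroblast-rich tumours and ΔEcad male 1, a fibroblast-poor tumour, had 331 and 626 TPM, the classes overlapped.

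**Figure D2:**
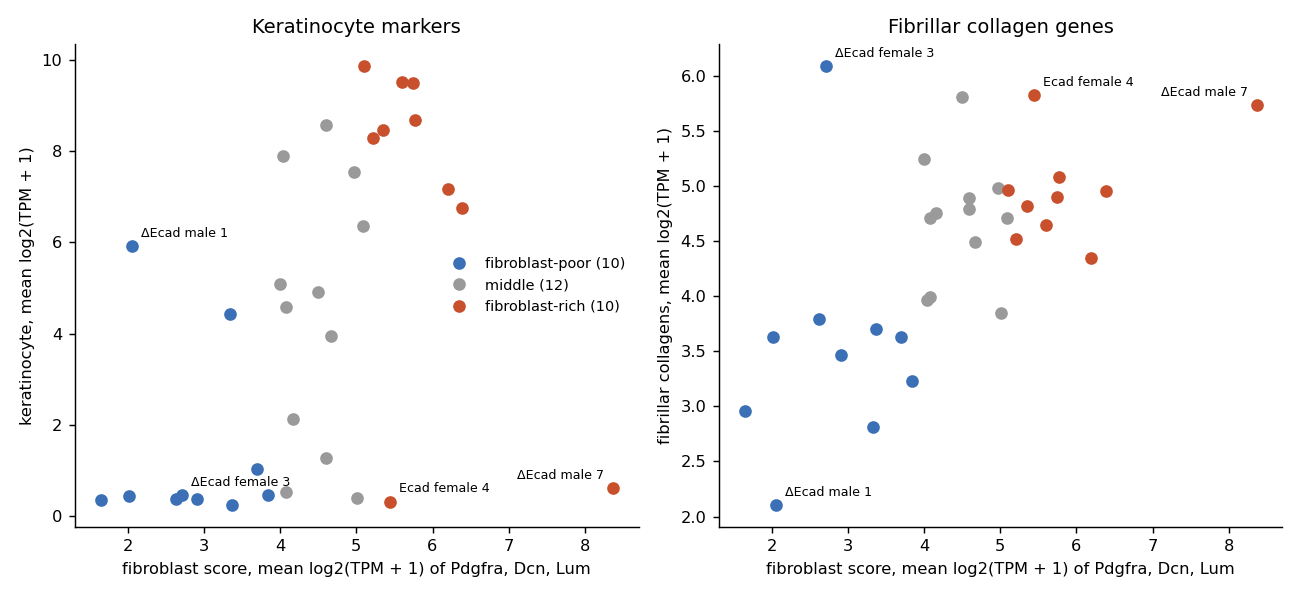
Each point is a tumour, with the fibroblast score on the horizontal axis and the mean log2(TPM + 1) of 12 keratinocyte markers (left) or of 11 fibrillar collagen genes (right) on the vertical axis, coloured by class. On the left the fibroblast-rich tumours lie near the top except Ecad female 4 and ΔEcad male 7, and on the right ΔEcad female 3 is a fibroblast-poor tumour with the highest collagen value, 6.09.

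The comparison over all genes asked which RNAs accompany the score. Counts were tested with edgeR's quasi-likelihood test with Benjamini-Hochberg adjustment, which gives every adjusted p below, and a gene was called at an adjusted p under 0.05 and a log2 difference over 1; the 3 score genes were not tested. Differences are given as log2, fibroblast-rich minus fibroblast-poor, ± a standard error worked back from the test statistic. Of 16058 genes, 1174 (7.31%) were higher and 229 (1.43%) lower in fibroblast-rich tumours, and the median log2 difference of all genes was -0.17. Since the tumours were chosen by RNA of the same cells, genes made by fibroblasts or by tissue that comes with them had to differ in part. With upper-quartile factors in place of the trimmed mean of M values the median of all genes rose by 0.13 and the calls were 1320 higher and 88 lower, 93.8% higher, against 83.7% with the trimmed mean. DESeq2 called 10.2% higher and 1.08% lower of 32251 genes with any count, where genes without an adjusted p count as not called. Limma with voom and tumour quality weights called 17% higher and 2.96% lower. These are the shares beside which their counts for a list are read. The quality weights can count a deviating tumour less, and DESeq2 by default replaces outlying counts in classes of this size. With genotype and sex in the fit, 70 genes (0.436%) were called higher and 6 (0.0374%) lower, each of them called in the same direction without these terms. In that fit 1174 of the 1174 genes called higher kept a positive difference and 228 of the 229 called lower a negative one. Of the lists below, only 2 other fibroblast markers and 1 basement membrane or transmembrane collagen were called in that fit. The shares of females and of ΔEcad tumours differed between the classes, and the part of sex and genotype in single genes was not tested apart from this fit.

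Without ΔEcad female 3 the counts were 1682 higher (10.3%) and 426 lower (2.6%) of 16398 genes, of which 1131 and 221 were called with it too. With the keratinocyte marker score as a covariate, 372 genes (2.32%) were higher and 354 (2.2%) lower, and 283 of the 1174 genes called higher and 69 of the 229 called lower were called in the same direction. In that fit 182 of the 1174 had a negative difference. With both that tumour and ΔEcad male 7 left out and the same covariate, 297 genes (1.83%) were higher and 793 (4.89%) lower. The part of epidermal RNA in a list that moves between them was not tested further.

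Of 16058 genes, 53 (0.33%) did not overlap in TPM between the 10 fibroblast-rich and the 10 fibroblast-poor tumours, all 53 higher in the fibroblast-rich ones, and 52 of them were called. The gene with the smallest p was Chrd, which encodes chordin, a secreted antagonist of bone morphogenetic proteins. It was at 1.1 to 5.18 TPM (median 2.19) in fibroblast-rich and 0.1 to 0.27 TPM (median 0.225) in fibroblast-poor tumours. Chrd differed by 3.37 ± 0.35 (adjusted p = 5.09e-05). Its exons overlap those of Thpo, as those of Mfap4, Mmp11, Efemp2 and Plin4 below overlap other genes, and reads could have been shared if strand was not used in counting. Il1rl2, the receptor for interleukin-36 in epithelia and myeloid cells, was at 5.43 to 26.8 TPM (median 11.4) in fibroblast-rich and 0.37 to 2.09 TPM (median 0.935) in fibroblast-poor tumours. Il1rl2 differed by 3.48 ± 0.37 (adjusted p = 5.09e-05). Itga3, the integrin chain by which basal keratinocytes hold laminin, was at 8.72 to 40.6 TPM (median 23.5) in fibroblast-rich and 1.36 to 4.62 TPM (median 2.05) in fibroblast-poor tumours. Itga3 differed by 2.83 ± 0.32 (adjusted p = 5.09e-05). Clca2, a membrane protein of basal epithelia, was at 0.85 to 31.2 TPM (median 9.44) in fibroblast-rich and 0.05 to 0.29 TPM (median 0.185) in fibroblast-poor tumours. Clca2 differed by 5.72 ± 0.67 (adjusted p = 9.35e-05). In each of these genes the lowest fibroblast-rich tumour was above the highest fibroblast-poor one, ΔEcad female 3 and ΔEcad male 7 included.

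The other genes among the 15 smallest p were of mixed kinds. Slc6a4, the serotonin transporter, which mast cells use, was at 0.4 to 8.92 TPM (median 4.6) in fibroblast-rich and 0.01 to 0.24 TPM (median 0.125) in fibroblast-poor tumours. Slc6a4 differed by 4.90 ± 0.62 (adjusted p = 0.000298). Prss35, a secreted protease-like protein, was at 0.5 to 31.4 TPM (median 7.2) in fibroblast-rich and 0 to 0.35 TPM (median 0.105) in fibroblast-poor tumours, and Rufy4, an autophagy adaptor of dendritic cells, at 0.81 to 2.84 TPM (median 1.3) in fibroblast-rich and 0 to 0.16 TPM (median 0.075) in fibroblast-poor tumours. Their log2 differences were 5.89 ± 0.79 (adjusted p = 0.00041) and 4.07 ± 0.54 (adjusted p = 0.000375). Ret, a receptor tyrosine kinase of neural crest derivatives, was at 0.54 to 3.96 TPM (median 1.53) in fibroblast-rich and 0.03 to 0.35 TPM (median 0.095) in fibroblast-poor tumours. Ret differed by 3.70 ± 0.54 (adjusted p = 0.000835). Dock9, an activator of the small GTPase CDC42, was expressed in every tumour, at 7.43 to 17.5 TPM (median 11.2) in fibroblast-rich and 1.2 to 4.76 TPM (median 3.18) in fibroblast-poor tumours, and had the smallest change of the 15, 1.70 ± 0.23 (adjusted p = 0.000461). Sobp (3.01), the guanine nucleotide exchange factor Arhgef4 (3.45), Fam167a (5.80), the Notch ligand Jag2 (4.04), the junction protein gene Myzap (2.41) and the interferon-inducible Ifi205 (3.89) rose too, as log2 differences, and only Fam167a and Jag2 of the 15 overlapped between the classes. All 15 were also called with genotype and sex in the fit. Under the keratinocyte covariate 13 of the 15 remained called, while Jag2 was at 1.09 (adjusted p = 0.352) and Arhgef4 at 1.34 (adjusted p = 0.0852).

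**Figure D3:**
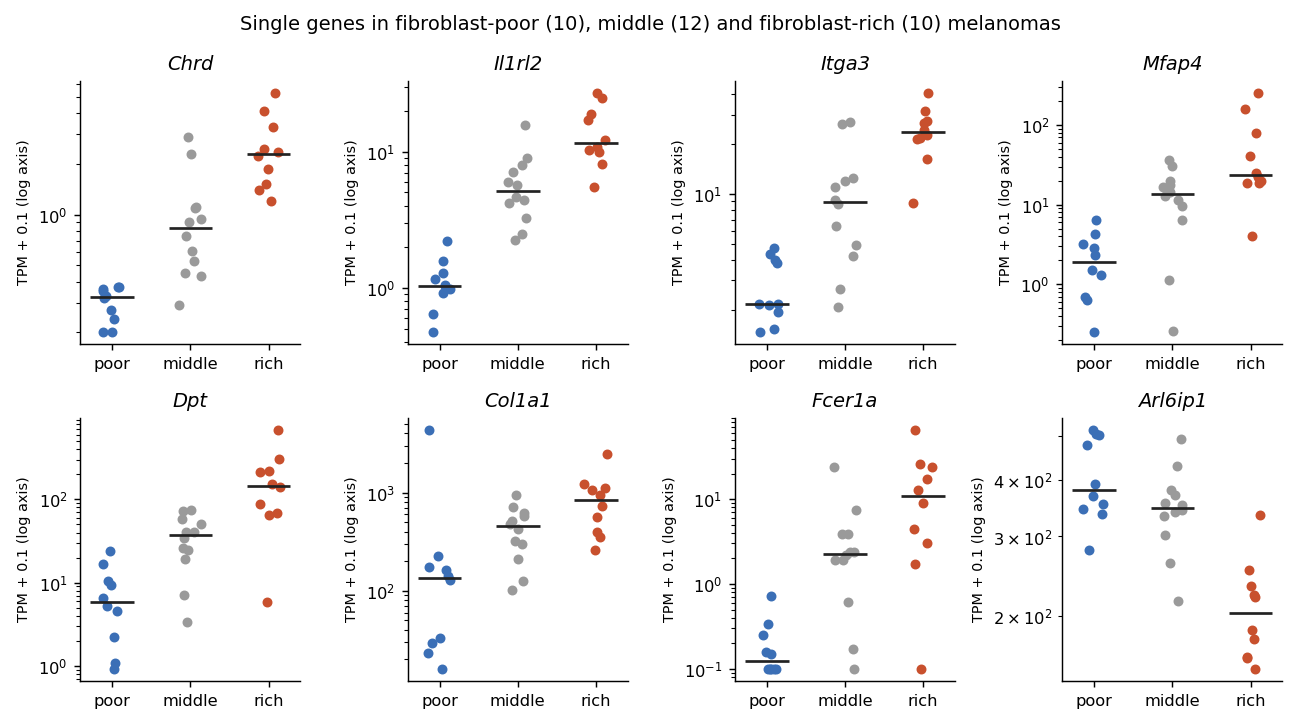
TPM + 0.1 on a log axis for 8 genes in the 10 fibroblast-poor, 12 middle and 10 fibroblast-rich tumours; points are tumours and bars are medians. Chrd, Il1rl2 and Itga3 separate the 2 outer classes, Mfap4, Dpt and Fcer1a do so but for single tumours, Col1a1 has 1 fibroblast-poor tumour at 4361 TPM, and Arl6ip1 is lower in the fibroblast-rich class with overlap.

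The 15 genes with the smallest p among those lower in fibroblast-rich tumours differed by -3.39 to -1.002. Arl6ip1, which shapes the endoplasmic reticulum, was at 153 to 334 TPM (median 203) in fibroblast-rich and 280.2 to 517 TPM (median 379) in fibroblast-poor tumours. Arl6ip1 differed by -1.24 ± 0.19 (adjusted p = 0.0011). Rpn1, a subunit of the complex that attaches sugars to new proteins, was at 93.2 to 194 TPM (median 135) in fibroblast-rich and 140.4 to 377 TPM (median 229) in fibroblast-poor tumours. Rpn1 differed by -1.07 ± 0.16 (adjusted p = 0.0011). All 10 fibroblast-rich tumours were below the fibroblast-poor median for both, although the classes overlapped. Usp39 (splicing, -1.09), Slc35b2 (sulphate donor transport, -1.20), Slc15a4 (lysosomal transport, -1.002), Atp5g2 (ATP synthase, -1.03), Smarcd1 (chromatin remodelling, -1.07), Sall2 (-1.25), Emc10 (membrane protein insertion, -1.24), Tex261 (-1.06), Pole4 (DNA polymerase, -1.24) and Pdxk (vitamin B6 kinase, -1.11) fell by similar log2 differences. Map6d1 was at 0.1 to 1.36 TPM (median 0.32) in fibroblast-rich and 0.36 to 11.9 TPM (median 3.64) in fibroblast-poor tumours. Map6d1 differed by -3.39 ± 0.61 (adjusted p = 0.00292). Itga9, an integrin chain, was at 3.56 to 11.8 TPM (median 7.16) in fibroblast-rich and 4.15 to 43.4 TPM (median 16.3) in fibroblast-poor tumours. Itga9 differed by -1.68 ± 0.34 (adjusted p = 0.00522). Of these 15 genes, 9 remained called with the keratinocyte score as a covariate and 5 with genotype and sex in the fit.

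Of 19 tested genes on a list of other fibroblast markers, 8 were called higher and 0 lower, with a median log2 difference of 2.05 beside -0.17 for all genes. Mfap4, a protein of elastic microfibrils, was at 3.95 to 251 TPM (median 23.5) in fibroblast-rich and 0.15 to 6.36 TPM (median 1.82) in fibroblast-poor tumours. Mfap4 differed by 4.54 ± 0.76 (adjusted p = 0.00181). Dpt, a collagen-binding matrix protein, was at 5.77 to 687 TPM (median 146) in fibroblast-rich and 0.82 to 24.1 TPM (median 5.8) in fibroblast-poor tumours. Dpt differed by 4.31 ± 0.73 (adjusted p = 0.00187). In both genes 9 of 10 fibroblast-rich tumours were above the highest fibroblast-poor one, and the tumour that was not was Ecad male 4 for Mfap4 and Ecad female 4 for Dpt. Lsp1, an actin-binding protein of leukocytes and fibroblasts, was at 18.5 to 326 TPM (median 28.8) in fibroblast-rich and 0.66 to 19.2 TPM (median 6.76) in fibroblast-poor tumours. Lsp1 differed by 2.71 ± 0.58 (adjusted p = 0.00687). Ly6a (Sca-1), a surface protein of dermal progenitors and vessels, was at 19.7 to 1121 TPM (median 399) in fibroblast-rich and 7.43 to 174 TPM (median 44.8) in fibroblast-poor tumours. Ly6a differed by 2.76 ± 0.60 (adjusted p = 0.00791). Leaving out ΔEcad female 3 gave 11 of 19 called higher. With the keratinocyte score as a covariate 8 of 19 were, with a median of 1.63, and with genotype and sex in the fit 2 of 19, with a median of 1.39. With ΔEcad male 7 left out as well as ΔEcad female 3, the keratinocyte covariate gave 2 of 19 called higher, with a median of 1.14.

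In edgeR's fit the genes of fibrillar collagen depended on ΔEcad female 3. With all 20 tumours 2 of 10 tested were called higher, Col24a1 (3.79 ± 0.86, adjusted p = 0.00924) and Col27a1 (2.38 ± 0.57, adjusted p = 0.0122), 2 minor fibrillar collagens with medians of 0.77 and 8.64 TPM in fibroblast-rich tumours. Col1a1, named here after its values were seen, was at 262 to 2473 TPM (median 835) in fibroblast-rich and 15.9 to 4361 TPM (median 135) in fibroblast-poor tumours. Col1a1 differed by 0.84 ± 0.80 (adjusted p = 0.485). Its highest and lowest values both lay in the fibroblast-poor class. Without ΔEcad female 3 the difference of Col1a1 was 2.82 (adjusted p = 0.00207), that of Col3a1, the type III collagen gene, 2.92 (adjusted p = 0.000696) where it had been 0.82 ± 0.78 (adjusted p = 0.484), and 7 of 10 fibrillar collagens were called higher. The median over the 10 genes was 0.77 with it and 2.33 without it. Among all 20 tumours DESeq2 called 7 of 11 higher and limma 7 of 10, with medians of 2.09 and 1.94. Both methods can discount outlying values, and how far they did so for ΔEcad female 3 was not tested. A keratinocyte covariate, with all 20 tumours, left 2 of 10 called higher, with a median of 1.90. With ΔEcad male 7 left out as well as ΔEcad female 3, that covariate gave 6 of 10 called higher, with a median of 3.32. In that fit 1.83% of all genes were called higher.

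By edgeR the contractile and activated fibroblast genes also depended on that tumour. It called 3 of 16 higher among all 20 tumours and 10 of 16 without ΔEcad female 3, with medians of 0.43 and 1.95. Among all 20 tumours DESeq2 called 10 of 16 higher and limma 8 of 16, with medians of 1.52 and 1.72. Here too these methods may have discounted ΔEcad female 3, which was not tested. Lrrc15, a marker of matrix-making fibroblasts in tumours, was at 1.37 to 90.1 TPM (median 14.9) in fibroblast-rich and 0.01 to 5.01 TPM (median 0.55) in fibroblast-poor tumours. Lrrc15 differed by 4.02 ± 0.88 (adjusted p = 0.00809). Comp, a matrix protein that binds collagen, was at 0.04 to 140.4 TPM (median 3.3) in fibroblast-rich and 0.12 to 1.57 TPM (median 0.31) in fibroblast-poor tumours. Comp differed by 4.66 ± 1.11 (adjusted p = 0.0122). Fap, the fibroblast activation protease, was at 1.11 to 14.9 TPM (median 3.35) in fibroblast-rich and 0.44 to 2.36 TPM (median 1.08) in fibroblast-poor tumours. Fap differed by 1.45 ± 0.46 (adjusted p = 0.0461). Acta2, named after its values were seen, had a difference of -1.81 ± 0.93 (adjusted p = 0.19) with all tumours and of 1.24 (adjusted p = 0.0388) without ΔEcad female 3, so that its direction turned on 1 tumour. A keratinocyte covariate left 2 of 16 called higher, with a median of 1.57. With ΔEcad male 7 left out as well as ΔEcad female 3, that covariate gave 5 of 16 called higher, with a median of 1.55. Of the other small leucine-rich proteoglycans 1 of 9 was called, Podn (podocan), at 3.36 to 32.5 TPM (median 14.3) in fibroblast-rich and 0.45 to 5.35 TPM (median 1.22) in fibroblast-poor tumours. Podn differed by 2.75 ± 0.53 (adjusted p = 0.00449). Without ΔEcad female 3, 4 of 9 were called higher, and with the keratinocyte covariate edgeR called 0 of 9 (4 at an unadjusted p under 0.05). Among all 20 tumours DESeq2 called 7 higher and 1 lower of 14 of these proteoglycans, and limma 5 higher and 1 lower of 9.

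Elastic fibre genes moved in both directions, with 4 of 13 called higher, 1 lower and a median of 0.37. Eln, the elastin gene, was at 0.27 to 114 TPM (median 25.8) in fibroblast-rich and 0.17 to 5.19 TPM (median 3.66) in fibroblast-poor tumours. Eln differed by 3.19 ± 0.69 (adjusted p = 0.00727). Mfap2, a microfibril protein, was at 10.7 to 489 TPM (median 44.0) in fibroblast-rich and 1.63 to 33.4 TPM (median 6.82) in fibroblast-poor tumours. Mfap2 differed by 2.98 ± 0.66 (adjusted p = 0.00828). Ltbp4, which binds elastic fibres and latent TGFβ, differed by 1.73 ± 0.45 (adjusted p = 0.018) and Efemp1 (fibulin-3) 3.60 ± 0.97 (adjusted p = 0.023), while Efemp2 (fibulin-4) fell, at 45.8 to 272 TPM (median 84.6) in fibroblast-rich and 72.6 to 554 TPM (median 143) in fibroblast-poor tumours. Efemp2 differed by -1.11 ± 0.33 (adjusted p = 0.0338). Without ΔEcad female 3, 7 of 13 were higher and 0 lower, with a median of 1.94, and Efemp2 was at -0.91 (adjusted p = 0.0468). Under the keratinocyte covariate 4 of 13 were higher and the median was 2.23. With ΔEcad male 7 left out as well as ΔEcad female 3, that covariate gave 3 higher, 1 lower and a median of 0.35, with Eln at -0.94 and Efemp1 at -0.58. With genotype and sex in the fit edgeR called 0 of 13 (7 at an unadjusted p under 0.05).

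Collagens of other kinds included several made by epidermis. Col7a1, the anchoring fibril collagen made by keratinocytes and fibroblasts, was at 8.64 to 109.7 TPM (median 48.1) in fibroblast-rich and 0.25 to 21.05 TPM (median 1.26) in fibroblast-poor tumours. Col7a1 differed by 3.63 ± 0.74 (adjusted p = 0.00548). Col17a1, the transmembrane collagen of hemidesmosomes, was at 0.08 to 590.2 TPM (median 185) in fibroblast-rich and 0.02 to 11.5 TPM (median 0.085) in fibroblast-poor tumours. Col17a1 differed by 5.84 ± 1.54 (adjusted p = 0.0201). In the fit with the keratinocyte covariate Col17a1 was at 0.21 (adjusted p = 0.909) and Col7a1 at 3.12 (adjusted p = 0.0333). With Col4a6, a basement membrane collagen (5.37 ± 1.13, adjusted p = 0.0065), they were the 3 of 13 called among basement membrane and transmembrane collagens. Of beaded-filament and network collagens 2 of 8 were called, Col6a5 (4.55 ± 0.91, adjusted p = 0.00516) and Col8a2 (2.87 ± 0.78, adjusted p = 0.023), and of collagens attached to fibrils 1 of 7, Col14a1 (1.48 ± 0.46, adjusted p = 0.0415). With ΔEcad female 3 left out, the counts were 5 of 9 beaded-filament and network collagens, where the median went from 0.95 to 1.98, and 2 of 7 collagens attached to fibrils. The keratinocyte covariate gave 3 of 8 and 0 of 7 by edgeR (3 of the 7 at an unadjusted p under 0.05). Of genes that fold, trim and cross-link collagen edgeR called 0 of 22 (5 at an unadjusted p under 0.05), DESeq2 5 higher and 0 lower of 22, and limma 7 higher and 2 lower of 22, and the median was -0.17. By edgeR without ΔEcad female 3, 4 of 22 were called higher, with a median of 0.25. With all tumours the keratinocyte covariate gave 0 of 22 by edgeR (3 at an unadjusted p under 0.05). With ΔEcad female 3 and ΔEcad male 7 left out it gave 6 of 22 called higher, with a median of 0.66. The 2 most abundant, the collagen chaperone Serpinh1 and the prolyl-hydroxylation partner Crtap, differed by -0.67 ± 0.32 (adjusted p = 0.16) and -0.15 ± 0.23 (adjusted p = 0.683).

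Among 18 matrix-degrading proteases and their inhibitors 4 were called higher and 0 lower, with a median of 1.11. Mmp9, a gelatinase of leukocytes and stroma, was at 4.33 to 89.1 TPM (median 24.4) in fibroblast-rich and 0.11 to 6.98 TPM (median 2.26) in fibroblast-poor tumours. Mmp9 differed by 2.92 ± 0.66 (adjusted p = 0.00922). Mmp11 (stromelysin-3) differed by 1.61 ± 0.36 (adjusted p = 0.00928), Mmp19 1.74 ± 0.56 (adjusted p = 0.048) and the collagen-cleaving cathepsin Ctsk, at 232 to 1492 TPM (median 566) in fibroblast-rich and 5.92 to 335 TPM (median 88.4) in fibroblast-poor tumours, differed by 2.08 ± 0.59 (adjusted p = 0.0273). Of 15 secretory and inflammatory fibroblast genes 5 were called higher, with a median of 1.53. The complement protease C1s1 was at 53.6 to 256 TPM (median 97.2) in fibroblast-rich and 7.06 to 83.7 TPM (median 14.1) in fibroblast-poor tumours. C1s1 differed by 2.19 ± 0.42 (adjusted p = 0.00383). Its partner C1ra differed by 1.53 ± 0.43 (adjusted p = 0.0269). The chemokine Cxcl12 was at 22.8 to 351 TPM (median 56.1) in fibroblast-rich and 1.26 to 83.9 TPM (median 5.27) in fibroblast-poor tumours. Cxcl12 differed by 2.28 ± 0.64 (adjusted p = 0.0273). The neutrophil chemoattractant Cxcl2 differed by 5.07 ± 1.42 (adjusted p = 0.0265). Leaving out ΔEcad female 3 gave 6 of 18 proteases and 9 of 15 secretory genes called higher. Under the keratinocyte covariate 2 of 18 proteases and 2 of 15 secretory genes were called higher, and with genotype and sex 0 of 18 by edgeR (7 at an unadjusted p under 0.05) and 0 of 15 by edgeR (3 at an unadjusted p under 0.05).

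Signalling genes are read beside the 7.31% of all genes called higher. Of the ligands of the platelet-derived growth factor receptors edgeR called 0 of 4 (0 at an unadjusted p under 0.05), DESeq2 0 higher and 0 lower of 4, and limma 2 higher and 0 lower of 4. Pdgfa was at 6.78 to 45.8 TPM (median 32.6) in fibroblast-rich and 2.6 to 81.8 TPM (median 11.8) in fibroblast-poor tumours, a difference of 0.073 ± 0.53 (adjusted p = 0.936), and Pdgfb differed by 1.17 ± 0.57 (adjusted p = 0.171). Of 23 growth factors and binding proteins of mesenchyme 3 were called higher, the morphogen Bmp4 (2.78 ± 0.61, adjusted p = 0.00824), the WNT inhibitor family member Sfrp2 (2.67 ± 0.65, adjusted p = 0.0143) and the WNT potentiator Rspo1 (3.61 ± 0.97, adjusted p = 0.0217), with a median of 0.54 over the list. The count was 8 of 23 without ΔEcad female 3 and 1 of 23 with the keratinocyte covariate. Of 14 genes of the transforming growth factor β pathway 1 (7.14%) was called, a share near that of all genes, its target Tgfbi, at 113 to 1156 TPM (median 263) in fibroblast-rich and 6.54 to 273 TPM (median 39.4) in fibroblast-poor tumours. Tgfbi differed by 2.12 ± 0.58 (adjusted p = 0.0235). Of 8 tested dermal papilla markers, which belong to the fibroblasts at the base of the hair, 2 were called higher, Prdm1 (2.34 ± 0.60, adjusted p = 0.0175) and Crabp2 (3.38 ± 0.94, adjusted p = 0.025). The papilla counts were 3 of 8 without ΔEcad female 3 and 0 of 8 (2 at an unadjusted p under 0.05) with the keratinocyte covariate. Of mesenchymal transcription factors edgeR called 0 of 10 (1 at an unadjusted p under 0.05), DESeq2 3 higher and 0 lower of 10, and limma 4 higher and 0 lower of 10. By edgeR without ΔEcad female 3, 4 of 10 were called higher, and the median went from 0.16 to 1.25. Snai1 differed by -0.77 ± 0.94 (adjusted p = 0.593) with all tumours and 2.22 (adjusted p = 0.00844) without ΔEcad female 3.

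**Figure D4:**
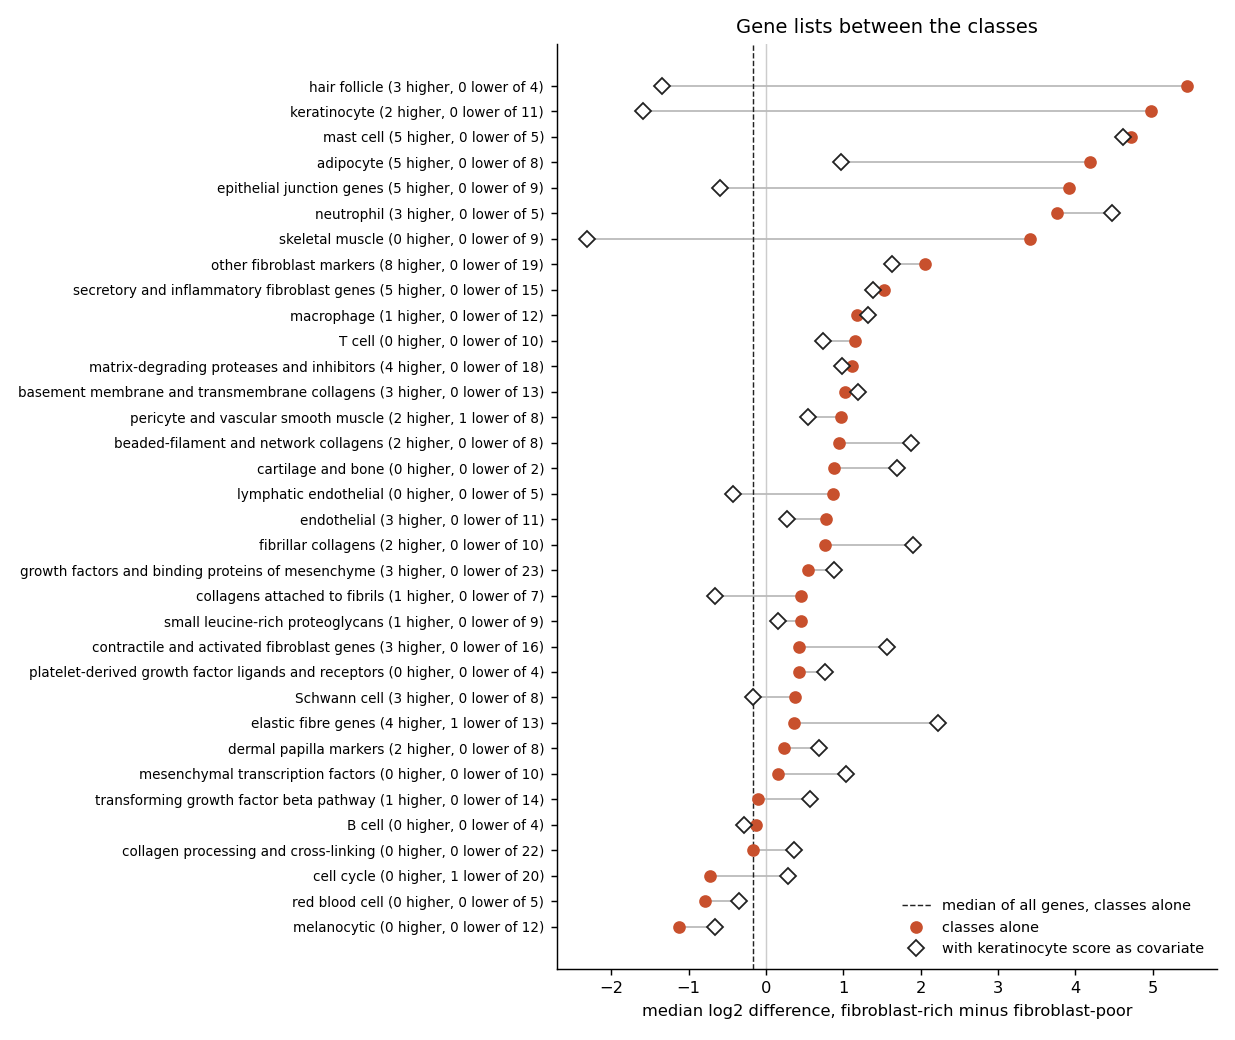
Median log2 difference (fibroblast-rich minus fibroblast-poor) of the tested members of the gene lists other than the score genes and the study's own lists, in the fit with the classes alone (filled circles) and with the keratinocyte score as a covariate (open diamonds); the labels give how many members were called in the fit with the classes alone, and the dashed line is the median of all genes, -0.17. The keratinocyte, hair follicle, epithelial junction and skeletal muscle medians are among those that turn from positive to negative between the fits, and the mast cell median is 4.72 in the one and 4.61 in the other.

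Epidermal and follicular genes carried large differences with large errors. Of 11 tested keratinocyte markers 2 were called higher, with a median of 4.98; Trp63, the transcription factor of basal epidermis, was at 0 to 54.2 TPM (median 17.8) in fibroblast-rich and 0 to 2.11 TPM (median 0.13) in fibroblast-poor tumours. Trp63 differed by 5.04 ± 1.33 (adjusted p = 0.0201). Krt5 differed by 5.17 ± 2.06 (adjusted p = 0.0971) and Krt14 4.87 ± 2.05 (adjusted p = 0.115). The 2 were edgeR's calls: DESeq2 called 10 of 12 keratinocyte markers higher and limma 11 of 11, beside 10.2% and 17% of all genes. Of 4 tested hair follicle genes 3 were called higher, among them Tchh (trichohyalin, 5.50 ± 1.34, adjusted p = 0.014) and Krt71 (5.87 ± 1.87, adjusted p = 0.045), an inner root sheath keratin. Of 9 tested epithelial junction genes 5 were called higher, among them the tight junction gene Cldn1 (3.56 ± 0.77, adjusted p = 0.0076) and the epithelial splicing factor Esrp2 (5.54 ± 1.30, adjusted p = 0.0114). DESeq2 called 8 of 10 junction genes higher and limma 9 of 9. With the keratinocyte score as a covariate 0 of 11 keratinocyte markers were called higher and 1 lower, in a fit whose covariate was made of this list; of the hair follicle genes 0 of 4 by edgeR (0 at an unadjusted p under 0.05) were then called and of the junction genes 0 of 9 by edgeR (1 at an unadjusted p under 0.05).

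Mast cell genes were higher in 5 of 5 tested members, with a median of 4.72, and remained so in 5 of 5 with the keratinocyte score as a covariate (median 4.61). Their summed level was 0.21 to 1783 TPM (median 472) in fibroblast-rich and 0.39 to 70.7 TPM (median 2.3) in fibroblast-poor tumours. Fcer1a, a chain of the high-affinity IgE receptor, was at 0 to 65.5 TPM (median 10.7) in fibroblast-rich and 0 to 0.63 TPM (median 0.025) in fibroblast-poor tumours. Fcer1a differed by 6.58 ± 1.19 (adjusted p = 0.00301). Cpa3, the mast cell carboxypeptidase, was at 0 to 204 TPM (median 49.5) in fibroblast-rich and 0 to 3.29 TPM (median 0.275) in fibroblast-poor tumours. Cpa3 differed by 5.86 ± 1.22 (adjusted p = 0.00632). The chymases Cma1 and Mcpt4 differed by 4.72 ± 1.19 (adjusted p = 0.0163) and 4.64 ± 1.27 (adjusted p = 0.024). Ecad female 4 had 0 TPM of Cpa3, and the other 9 fibroblast-rich tumours were above the highest fibroblast-poor one. Without ΔEcad female 3 and ΔEcad male 7 and with the keratinocyte score as a covariate, 0 of 5 by edgeR (0 at an unadjusted p under 0.05) were called and the median was -0.059. With genotype and sex in the fit 0 of 5 by edgeR (5 at an unadjusted p under 0.05) were called, with a median of 5.61.

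Of 5 tested neutrophil genes 3 were called higher, with a median of 3.76. Ecad female 4 stood out, with a mean log2(TPM + 1) of 7.01 over the 7 listed genes. The other fibroblast-rich tumours had 1.98 to 4.80, and the fibroblast-poor tumours 0.17 to 3.27. S100a8, a calcium-binding alarmin of neutrophils that stressed keratinocytes also make, was at 7.83 to 2137 TPM (median 198) in fibroblast-rich and 1.11 to 54.4 TPM (median 20.2) in fibroblast-poor tumours. S100a8 differed by 4.41 ± 0.93 (adjusted p = 0.00678). Its partner S100a9 differed by 4.55 ± 1.13 (adjusted p = 0.0151). Cxcr2, the chemokine receptor of neutrophils, was at 0.13 to 32.7 TPM (median 4.06) in fibroblast-rich and 0 to 1.44 TPM (median 0.25) in fibroblast-poor tumours. Cxcr2 differed by 3.76 ± 0.83 (adjusted p = 0.00824). Under the keratinocyte covariate 5 of 5 neutrophil genes were called higher (median 4.47). With genotype and sex in the fit edgeR called 0 of 5 (5 at an unadjusted p under 0.05). In classes made with a score of Dpt, Fbln1 and Clec3b the differences of S100a8, S100a9 and Cxcr2 were -0.75, -1.45 and -0.40. Of 12 macrophage genes edgeR called 1 (8.33%), a share near the 7.31% of all genes called higher. It was the scavenger receptor Cd163 (3.49 ± 1.001, adjusted p = 0.0291), while Adgre1, which encodes F4/80, differed by 0.90 ± 0.76 (adjusted p = 0.428). The list's median was 1.18, and DESeq2 called 4 of 12 higher and limma 6 of 12. By edgeR the count was 2 of 12 without ΔEcad female 3 and 0 of 12 (4 at an unadjusted p under 0.05) with the keratinocyte covariate. Of T cell genes edgeR called 0 of 10 (0 at an unadjusted p under 0.05), DESeq2 0 higher and 0 lower of 10, and limma 6 higher and 0 lower of 10, where limma called 17% of all genes higher, with a median of 1.15 and Cd3e at 1.42 ± 0.91 (adjusted p = 0.291). Of B cell genes edgeR called 0 of 4 (0 at an unadjusted p under 0.05), DESeq2 1 higher and 0 lower of 8, and limma 0 higher and 0 lower of 4, with a median of -0.13.

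Vessel genes were higher in a few members. Of 11 endothelial genes 3 were called higher, the angiopoietin receptor Tek (1.83 ± 0.46, adjusted p = 0.0169), the transcription factor Erg (1.88 ± 0.50, adjusted p = 0.021) and Vwf, von Willebrand factor (1.53 ± 0.46, adjusted p = 0.0348), while the defining marker Pecam1 differed by 1.08 ± 0.50 (adjusted p = 0.143). Of 8 pericyte and vascular smooth muscle genes 2 were higher, Notch3 (1.64 ± 0.45, adjusted p = 0.0242) and the smooth muscle myosin Myh11 (2.17 ± 0.65, adjusted p = 0.0345), and 1 was lower, Mcam, an adhesion molecule that melanoma cells also make, at 30.2 to 455 TPM (median 154) in fibroblast-rich and 146 to 979 TPM (median 460.1) in fibroblast-poor tumours. Mcam differed by -1.73 ± 0.44 (adjusted p = 0.0168). Of lymphatic endothelial genes edgeR called 0 of 5 (1 at an unadjusted p under 0.05), DESeq2 1 higher and 0 lower of 5, and limma 2 higher and 0 lower of 5. Of 8 adipocyte genes 5 were called higher, with a median of 4.19: Adipoq, the adiponectin gene, was at 0.06 to 793 TPM (median 77.3) in fibroblast-rich and 0.24 to 38.6 TPM (median 2.92) in fibroblast-poor tumours. Adipoq differed by 4.09 ± 1.24 (adjusted p = 0.0372). Lpl and Plin4 differed by 2.84 ± 0.60 (adjusted p = 0.00687) and 4.39 ± 0.94 (adjusted p = 0.00701). Of skeletal muscle genes edgeR called 0 of 9 (5 at an unadjusted p under 0.05), DESeq2 6 higher and 0 lower of 10, and limma 4 higher and 0 lower of 9, with a median of 3.42; Acta1, skeletal actin, was at 0.05 to 15087 TPM (median 1265) in fibroblast-rich and 0 to 1268 TPM (median 0.635) in fibroblast-poor tumours. Acta1 differed by 3.42 ± 1.77 (adjusted p = 0.194). With the keratinocyte score as a covariate 0 of 11 by edgeR (0 at an unadjusted p under 0.05) were called of endothelial, 0 of 8 by edgeR (2 at an unadjusted p under 0.05) of pericyte and 0 of 8 by edgeR (0 at an unadjusted p under 0.05) of adipocyte genes.

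Of 8 Schwann cell markers 3 were called higher, with a median of 0.38, among them the myelin gene Mbp (2.80 ± 0.52, adjusted p = 0.00344). The keratinocyte covariate left 0 of 8 (2 at an unadjusted p under 0.05). Of melanocytic genes edgeR called 0 of 12 (2 at an unadjusted p under 0.05), DESeq2 0 higher and 0 lower of 12, and limma 0 higher and 1 lower of 12, with a median of -1.13. Dct was at 4.98 to 22378 TPM (median 8684) in fibroblast-rich and 1917 to 50656 TPM (median 13947) in fibroblast-poor tumours. Dct differed by -1.40 ± 0.73 (adjusted p = 0.199). Mlana was at 7.47 to 13676 TPM (median 6869.7) in fibroblast-rich and 996 to 15006 TPM (median 6899) in fibroblast-poor tumours. Mlana differed by -0.52 ± 0.69 (adjusted p = 0.623). The mean log2(TPM + 1) of the 12 genes was 1.45 to 10.06 (median 8.04) in fibroblast-rich and 7.54 to 10.01 (median 8.39) in fibroblast-poor tumours. Of 20 cell cycle genes 1 was called lower, the replication helicase subunit Mcm2, at 8.64 to 42.6 TPM (median 14.1) in fibroblast-rich and 10.8 to 133 TPM (median 41.0) in fibroblast-poor tumours. Mcm2 differed by -1.38 ± 0.33 (adjusted p = 0.012). The median was -0.73, and the keratinocyte covariate left 0 of 20 by edgeR (0 at an unadjusted p under 0.05) with a median of 0.28. DESeq2 called 1 of 20 lower and limma 4 of 20, where limma called 2.96% of all genes lower. Without ΔEcad female 3 edgeR called 1 of 20 lower, with a median of -0.35. Of red blood cell genes edgeR called 0 of 5 (0 at an unadjusted p under 0.05), DESeq2 0 higher and 0 lower of 5, and limma 0 higher and 0 lower of 5. Of cartilage and bone genes edgeR called 0 of 2 (1 at an unadjusted p under 0.05), DESeq2 0 higher and 0 lower of 8, and limma 1 higher and 0 lower of 2.

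The study scored melanoma cell states by gene lists, and these lists were read between the classes. Of invasive-state genes edgeR called 0 of 6 (0 at an unadjusted p under 0.05), DESeq2 2 higher and 0 lower of 6, and limma 3 higher and 0 lower of 6, with a median of 0.47; the receptor kinase Axl differed by 0.84 ± 0.60 (adjusted p = 0.346) and the matrix protein Tnc 0.49 ± 0.74 (adjusted p = 0.672). The invasive count was 1 of 6 and the median 1.15 without ΔEcad female 3. Of pigmentation-state genes edgeR called 0 of 5 (1 at an unadjusted p under 0.05), DESeq2 0 higher and 0 lower of 5, and limma 0 higher and 1 lower of 5, with a median of -0.98. Of neural crest-like genes edgeR called 0 of 6 (3 at an unadjusted p under 0.05), DESeq2 2 higher and 0 lower of 6, and limma 2 higher and 0 lower of 6, with a median of -0.066. Of 5 starved-like genes 1 was called higher, with a median of 1.14. Of the 5 genes of the YAP1 activation score 1 was called, Tead4, a DNA-binding partner of YAP1. Tead4 differed by 1.14 ± 0.33 (adjusted p = 0.0291). The median was 0.21, and DESeq2 and limma each called 2 of 5 higher. ΔEcad female 3 had a mean log2(TPM + 1) of 6.00 over these genes, where the other fibroblast-poor tumours had 2.88 to 4.32. Without it edgeR called 2 of 5 higher, with a median of 0.46. The keratinocyte covariate, with all tumours, left 0 of 5 by edgeR (0 at an unadjusted p under 0.05).

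The 12 middle tumours, which took no part in the class comparison, were used to ask whether genes followed the score within a range of 4.00 to 5.09. No gene passed an adjusted p under 0.05: edgeR gave 0 calls, with a smallest adjusted p of 0.238 and 951 genes at an unadjusted p under 0.05. Among the genes called higher between the classes 684 of 1174 (58.3%) had a positive slope in the middle tumours, and among those called lower 129 of 229 (56.3%) did, where 7295 of all 16058 genes (45.4%) did. The share was thus alike for genes called higher and genes called lower. In the same edgeR fit Chrd had a slope of -3.38 (unadjusted p = 0.152) and Itga3 of 2.88 (unadjusted p = 0.203), on the log2 scale for a step in score as large as the gap between the class means, 3.10.

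The score itself was compared between the study's groups, over all 32 tumours, in 4 comparisons with a two-sided exact permutation test over all splits of 8 against 8. Ecad males had scores of 2.63 to 6.20 (mean 4.71 ± 1.10, SD, n = 8) and Ecad females of 1.64 to 5.44 (3.58 ± 1.09). ΔEcad males had 2.06 to 8.37 (4.89 ± 1.78) and ΔEcad females 2.02 to 6.38 (4.46 ± 1.51). The largest difference was between Ecad females and males, -1.14 (exact permutation p = 0.0575, adjusted p = 0.23), with 7 of 8 females below the male median. ΔEcad and Ecad females differed by 0.88 (exact permutation p = 0.198, adjusted p = 0.395). ΔEcad and Ecad males differed by 0.18 (exact permutation p = 0.828, adjusted p = 0.828), and ΔEcad females and males by -0.43 (exact permutation p = 0.615, adjusted p = 0.82). None of the 4 passed the adjusted threshold. These groups follow the labels, and ΔEcad male 2 was counted as male despite its Xist and Y-linked values. Without it ΔEcad and Ecad males differed by 0.29 (exact permutation p = 0.731, adjusted p = 0.731). ΔEcad females and males then differed by -0.55 (exact permutation p = 0.549, adjusted p = 0.731).

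A score of 3 other fibroblast genes, Dpt, Fbln1 and Clec3b, gave another picture of the same groups. On it the difference between Ecad females and males was -2.04 (exact permutation p = 0.00606, adjusted p = 0.018), with all 8 females below the male median. Between ΔEcad and Ecad females it was 1.87 (exact permutation p = 0.00901, adjusted p = 0.018), with 8 of 8 above their median. The 2 scores use different genes of the same tumours, and the difference between them was not tested.

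**Figure D5:**
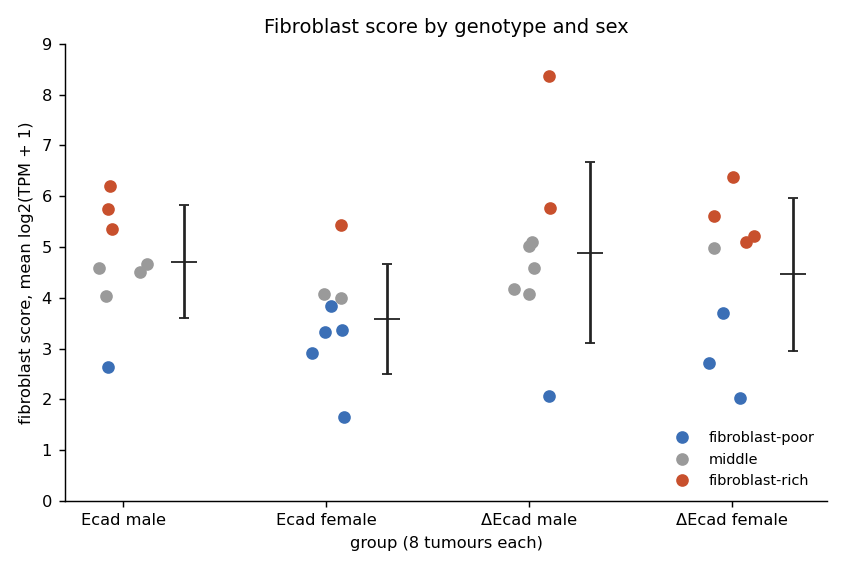
Fibroblast score, the mean log2(TPM + 1) of Pdgfra, Dcn and Lum, for the 8 tumours of each group, coloured by class, with the mean and SD beside the points. The groups overlap, and ΔEcad male 7 lies above all other tumours at 8.37.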

How the data were processed

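RNA of 32 melanomas was extracted with a miRNeasy kit and sequenced as stranded, poly(A)-selected, paired-end libraries. The authors mapped the reads with STAR to mm10 (GENCODE M13, GRCm38.p5), used FastQC 0.11.5, and deposited raw counts per gene. The TPM values, scaled by the authors for gene length and to the same total in each tumour, were also deposited, and they gave the score and the levels. ComBat batch correction is described as used where it applied, and is not stated for these tumours. Whether strand was used in counting is not given in the sources used here. The GENCODE M21 annotation (GRCm38) gave coordinates and put a symbol on 50376 of 50600 genes.

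The classes were compared on counts with edgeR 4.0.16 in R 4.3.3 (quasi-likelihood F-test, robust, trimmed mean of M values, filterByExpr by class), which left 16058 genes beside the 3 score genes. Adjusted p-values are Benjamini-Hochberg over all genes tested. The ± after a log2 difference is a standard error worked back from the test, the difference divided by the square root of its F statistic. Fitted differences of genes near 0 counts in a class depend on the prior count. Total counts were 24036333 to 63923086 per tumour. The middle tumours were fitted with the score as a covariate, and the score was compared between groups by exact permutation. DESeq2 1.42.0, limma 3.58.1, other factors, filters, scores, class sizes and covariates were alternatives, and the scripts were tested on simulated data. The rule for named genes took the score genes, Cdh1, Grpr, the 15 smallest p in each direction, up to 4 called members of each list in each direction (or the 2 most abundant) and the first 2 genes of each cell type list; most of these are named here, and a few are not reported here. Genes named for tumours that stand apart, and Col1a1, Col3a1, Acta2 and Snai1, were chosen after their values were seen. The members and the 40 lists, of whose 408 genes 407 were matched, were chosen with earlier results of these data known.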

Additional observations from a re-analysis of the deposited data

Results flagged for a closer look

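In 40 of 218 groups of 10 values, a tumour lay so far from the nearest other tumour of its class that the gap passed Dixon's critical value for 10 values. Chance marks about 1 in 20 groups. The genes are not independent, and 3 tumours account for most of the 40. Values are log2 CPM (counts scaled to the library total) with a prior count of 1, in fibroblast-rich tumours unless stated.

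ΔEcad male 7 was above the other fibroblast-rich tumours in the fibroblast score, at 8.37 against 6.38 for the next tumour, and in these genes: Lsp1 9.08, Crtap 7.83, Mfap2 7.57, Efemp2 7.85, Snai1 6.06 and Axl 9.31. It was below them in the melanocytic genes Dct and Mlana and in the neutrophil receptor gene Cxcr2: Dct 1.86, Mlana 0.60 and Cxcr2 -2.72. Ecad female 4 was below the other fibroblast-rich tumours in some genes of dermal matrix, though not in Col1a1, and in genes of epithelium, mast cells and fat: Itga3 3.96, Dpt 1.64, Ly6a 2.89, Col4a6 -5.19, Eln -0.52, Ltbp4 4.02, Efemp1 -3.998, Bmp4 -2.57, Crabp2 -0.033, Cldn1 0.37, Cpa3 -5.19, Cma1 -5.19, Mcpt4 -3.998 and Plin4 -2.57.

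Among fibroblast-poor tumours ΔEcad female 3 was high in collagen, actin and Snai1: Col1a1 13.10, Col3a1 13.05, Acta2 11.09 and Snai1 8.05. It was low in endothelial, macrophage and other genes: Pdgfb -4.35, Prdm1 -5.19, Dct 10.38, Adgre1 -5.19, Erg -3.82, Vwf 0.56 and Pecam1 -1.70. ΔEcad male 1, also fibroblast-poor, was high in the follicular genes: Crabp2 4.69 and Tchh 3.42.

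Single tumours accounted for the rest. Ecad male 4 was high in Ifi205, at 5.88, and ΔEcad female 7 was low in Pdgfa, at 3.14. Ecad female 3 was low in Col27a1, at -2.61, within the fibroblast-poor class.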

How the results depend on the processing

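The calls between the classes (1403, of which 1174 higher and 229 lower) kept their predominance of higher genes in most alternatives, not in those with a keratinocyte score. DESeq2 gave 3649 (3302 and 347), and limma with voom and tumour quality weights 3208 (2732 and 476). No filter on low counts gave 2473 (2154 higher). A filter of 50 counts in 10 tumours gave 828 (727 and 101), and genotype and sex as covariates 76 (70 and 6). Classes of 8 tumours gave 404 (351 and 53), classes of 12 gave 476 (436 and 40), and an adjusted p under 0.01 gave 397 (360 and 37). Without a fold threshold 725 were lower. RLE size factors gave 151 lower and upper-quartile factors 88. A keratinocyte covariate gave 726 (372 and 354), and with a melanocytic one added 638 (146 and 492). A score of Dpt, Fbln1 and Clec3b gave 2263 (1830 and 433). Chosen after seeing the data, ΔEcad female 3 left out gave 2108 (426 lower), ΔEcad male 7 left out as well 389 lower, and the keratinocyte covariate with both left out 297 higher and 793 lower. Leaving out each tumour gave 904 to 2108 calls, 809 to 1682 higher and 95 to 426 lower. ΔEcad female 2 set the lowest (904 and 95 lower) and ΔEcad female 3 the highest, and the lower count also moved past 1.5 times without Ecad male 6 (112), ΔEcad female 1 (127), ΔEcad male 3 (138) and Ecad female 4 (374). The tumour numbers did not pair the tumours: 48 pairs of equal number had a mean correlation of -0.005 and 336 other pairs of 0.003, and 1 of 32 tumours lay closest to its own number. With the number as a replicate block the calls were 886, of which 41 lower. Of named genes, Trp63 (-0.75) and Krt71 (-2.70) turned negative with the keratinocyte covariate, and with the melanocytic one added Col17a1 (-0.60), Trp63 (-0.87) and Krt71 (-2.99) did. With the score of Dpt, Fbln1 and Clec3b, Cxcl2 (-4.44), S100a8 (-0.75), S100a9 (-1.45) and Cxcr2 (-0.40) did. With ΔEcad female 3 and ΔEcad male 7 left out and the keratinocyte covariate, Col6a5 (-0.48), Col17a1 (-0.41), Eln (-0.94), Efemp1 (-0.58), Fap (-0.078), Crabp2 (-0.13), Krt71 (-2.22), Cma1 (-0.059), Mcpt4 (-0.59), Plin4 (-0.25) and Adipoq (-0.12) turned negative and Mcm2 (0.029) positive. The score difference between ΔEcad and Ecad males was -0.69 with the score of Dpt, Fbln1 and Clec3b and -0.32 without ΔEcad male 7. That between ΔEcad females and males was 0.53 and 0.066. With the former score ΔEcad and Ecad females differed by 1.87 and Ecad females and males by -2.04, both past the threshold. The cause of these changes was not tested. ΔEcad male 2, in neither class, left the class values as they were. Genes with few counts in a class have the least certain folds.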
